A study of Mus musculus with 17 samples.

Results

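The genes of MHC class II antigen presentation were read in bronchoalveolar lavage (BAL) cells, which are rinsed out of the lung's air spaces and are mostly alveolar macrophages in an untreated mouse. The mice were of the inbred strain A/J, in which lung tumours arise readily. The members are Cd74, H2-Aa, H2-Ab1, H2-Eb1, H2-DMa, H2-DMb1, H2-DMb2, H2-Oa, Ciita and Ctss. The genes were chosen by name, and every probe set of the Affymetrix Mouse430_2 array annotated to exactly 1 of them was taken: 19 of 45037 probe sets that are not array controls. These 19 covered 9 of the 10 genes, out of 18194 genes with a probe set annotated to 1 symbol, because both probe sets that carry H2-DMb1 were annotated to H2-DMb2 as well. The groups were 11 arrays from A/J mice treated with urethane, a chemical carcinogen of the mouse lung, and 6 arrays from untreated A/J controls of matched age. No dose, time after treatment, age or further agent was given in the sources used here.

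Each array carries the number of its label. Array 6_13, a control, carried 2 numbers, and the labels do not say whether it was a pool. They also leave unsaid whether every number is its own mouse. The p-values therefore cover only the spread among these arrays, which may be technical in part. The numbers fell into 2 ranges, under 20 (5 urethane and 2 control arrays) and 31 and over (6 urethane and 4 control arrays), and each range was 1 scan day and 1 chip lot of its own. One label field names lung tissue for all arrays, whereas the source field names lavage cells. Of 16 listed alveolar macrophage markers 13 had a probe set that passed the filter on low signals, and their summed signal ran from 165773 to 251404 on urethane arrays and from 206209 to 249641 on control arrays. The 20th percentile signal, a measure of the dim end of an array, ran from 9.49 to 66.2 on urethane arrays and from 15.7 to 28.4 on control arrays, with urethane arrays 33, 36 and 35 highest.

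MHC class II molecules carry peptides from endosomes to the cell surface, where CD4+ T cells read them. H2-Aa and H2-Ab1 encode the alpha and beta chains of the I-A molecule, and H2-Eb1 the beta chain of I-E. Cd74, the invariant chain, fills their groove and guides them to endosomes, where Ctss (cathepsin S) cuts it down to a fragment called CLIP. H2-DM, a pair of H2-DMa with an H2-DMb chain, exchanges CLIP for peptide, and H2-O, with H2-Oa as its alpha chain, inhibits H2-DM. Ciita is the transactivator that switches these genes on through a shared promoter module of X and Y boxes, on which the factors RFX, CREB and NF-Y sit. Alveolar macrophages carry less class II than dendritic cells, B cells and interstitial macrophages, and lavage RNA is a mixture, so fewer cells of a type and less RNA per cell cannot be told apart in these data.

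Promoters of 7 of the 10 genes were in the RefSeq table of build GRCm38.p6, with a pair of start sites for H2-DMa and 8 promoters in all. Windows of 160 bases before the start are printed 5′ to 3′ for 6 of the genes, to show how far members share the module through which Ciita acts. Capitals mark exact matches, on either strand, to the Y box core ATTGG, the X box core AGCAAC and the interferon-stimulated response element (GAAA, any 2 bases, GAAA). These are reference sequences and not those of the A/J alleles.
H2-Aa (chr17:34287824-34287983, minus strand): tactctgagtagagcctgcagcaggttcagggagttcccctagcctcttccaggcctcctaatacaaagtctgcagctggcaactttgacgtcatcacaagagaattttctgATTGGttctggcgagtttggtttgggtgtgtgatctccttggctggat
H2-Eb1 (chr17:34305707-34305866, plus strand): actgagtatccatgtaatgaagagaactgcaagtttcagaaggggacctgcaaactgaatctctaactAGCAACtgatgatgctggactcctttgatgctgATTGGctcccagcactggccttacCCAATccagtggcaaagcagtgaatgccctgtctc
H2-DMb1 (chr17:34153031-34153190, plus strand): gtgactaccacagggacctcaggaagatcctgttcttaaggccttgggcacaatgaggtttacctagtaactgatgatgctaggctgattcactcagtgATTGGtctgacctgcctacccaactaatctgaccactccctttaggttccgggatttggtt
H2-DMb2 (chr17:34145089-34145248, plus strand): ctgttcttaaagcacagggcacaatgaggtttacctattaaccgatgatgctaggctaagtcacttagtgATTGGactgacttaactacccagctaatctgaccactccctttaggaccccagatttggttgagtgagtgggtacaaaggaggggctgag
H2-Oa (chr17:34092219-34092378, plus strand): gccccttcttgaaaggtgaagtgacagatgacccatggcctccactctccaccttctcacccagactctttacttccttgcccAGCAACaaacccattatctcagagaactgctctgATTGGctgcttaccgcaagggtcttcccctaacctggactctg
Ctss (chr3:95526626-95526785, plus strand): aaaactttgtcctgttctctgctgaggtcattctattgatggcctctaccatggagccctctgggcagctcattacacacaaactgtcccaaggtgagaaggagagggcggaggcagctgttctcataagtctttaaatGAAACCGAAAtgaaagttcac
The Y box core lay in the 250 bases before the start in 6 of 8 member promoters, against 33.85% of 32851 mouse promoters of the same length. It lay at -48 to -44 from the start in H2-Aa, -43 to -39 in H2-Oa, -61 to -57 in H2-DMb1 and -90 to -86 in H2-DMb2. The X box core was matched in H2-Eb1, at -92 to -87 with a Y box core at -59 to -55, and in H2-Oa, at -77 to -72. Over all promoters 12.213% held the X box core. Only exact letters were searched, so a promoter without a match may still hold a box with changed letters. Ctss held the interferon element at -21 to -12, as did 2.977% of all promoters, and neither box core. No overlap between motifs occurred in these windows, and a match in letters is not evidence of a bound site. The 250 bases before the starts of H2-DMb1 and H2-DMb2 were identical at 175 of 291 aligned positions (60.137%).

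Signals were compared as log2 of the deposited signal plus a pseudocount of 17.1, which understates the change of dim genes. Of the 19 probe sets 18 passed the filter (above the 40th percentile of the array on at least 6 of 17 arrays), 15 of them on all 17 arrays. The exception was 1443783_x_at of H2-Aa, above that level on 4 urethane arrays and on 0 control arrays, with log2 signals of 4.18 to 6.61 on urethane arrays and 5.70 to 6.20 on control arrays. By the maker's naming, probe sets ending in _s_at or _x_at can also read related transcripts. Ciita was dim: 1421210_at was above the 40th percentile on 10 of 11 urethane arrays and 6 of 6 control arrays, and 1447075_at on 6 urethane and 4 control arrays. Its probe set 1421211_a_at was above that level on 11 urethane and 3 control arrays. Under 20 these were 5 of 5 urethane and 0 of 2 control arrays. The 40th percentile is that of each array, so such counts also follow the dim end of the array. At this probe set control 6_13 was not above its own level with a log2 signal of 6.07, whereas urethane array 9 was with 6.04.

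Over all arrays, class II presentation genes were mostly lower after urethane, but few of the differences passed the test. Of 18 probe sets 3 fell and 0 rose (limma, Benjamini-Hochberg adjusted over all 29550 kept probe sets, threshold 0.05): H2-DMb2 at 1443687_x_at and 1443686_at, and H2-Aa at 1435290_x_at. Over the whole array 1.58% of probe sets passed in either direction, 0.606% fell and 0.971% rose. The difference of urethane minus control was negative for 17 of the 18 and its median was -0.29 on the log2 scale, where 58.2% of all probe sets were negative with a median of -0.05. On no member did the 2 groups separate, as 0.315% of all probe sets did. At an unadjusted p under 0.05 stood 6 of the 18 members and 3680 of all probe sets. With the number range as a block the same 3 passed and H2-DMa at 1422527_at with them, against 4.93% of all probe sets. With the 3′ to 5′ signal ratios of the Gapdh and Actb control probe sets as covariates none of the 3 passed (adjusted p = 0.0620, 0.0663 and 0.174), and H2-DMb2 at 1419744_at did instead. The log2 Actb ratio in the range 31 and over ran from 0.17 to 0.27 on urethane arrays, and was 0.083, 0.097, 0.13 and 0.26 on controls 33, 35, 36 and 37.

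The 2 number ranges differed in what they showed. In the range under 20, 0 of 18 probe sets passed, against 5.03% of all probe sets, and the median member difference was -0.05. At an unadjusted limma p under 0.05 stood 4 of the 18 members there, and 7797 of all 29550 probe sets. In the range 31 and over 3 fell and 0 rose, H2-DMa at 1422527_at, H2-DMb2 at 1443687_x_at and H2-Aa at 1435290_x_at, against 2.73% of all probe sets in either direction, 1.31% that fell and 1.42% that rose. There all 18 differences were negative, with a median of -0.59, whereas 45.9% of all probe sets were negative with a median of 0.04. In that range 11 of the 18 members and 4615 of all probe sets stood at an unadjusted limma p under 0.05. The difference between the ranges was tested itself, as an interaction: 0 of 18 members passed, against 0.0169% of all probe sets. Here 8 of the 18 members and 5397 of all probe sets stood at an unadjusted limma p under 0.05. The array scaling moves these medians, since centring each array on its own median took the median of all probe sets in the range under 20 to 0.09, against -0.13 as deposited, and the member median there to 0.18.

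**Figure D1:**
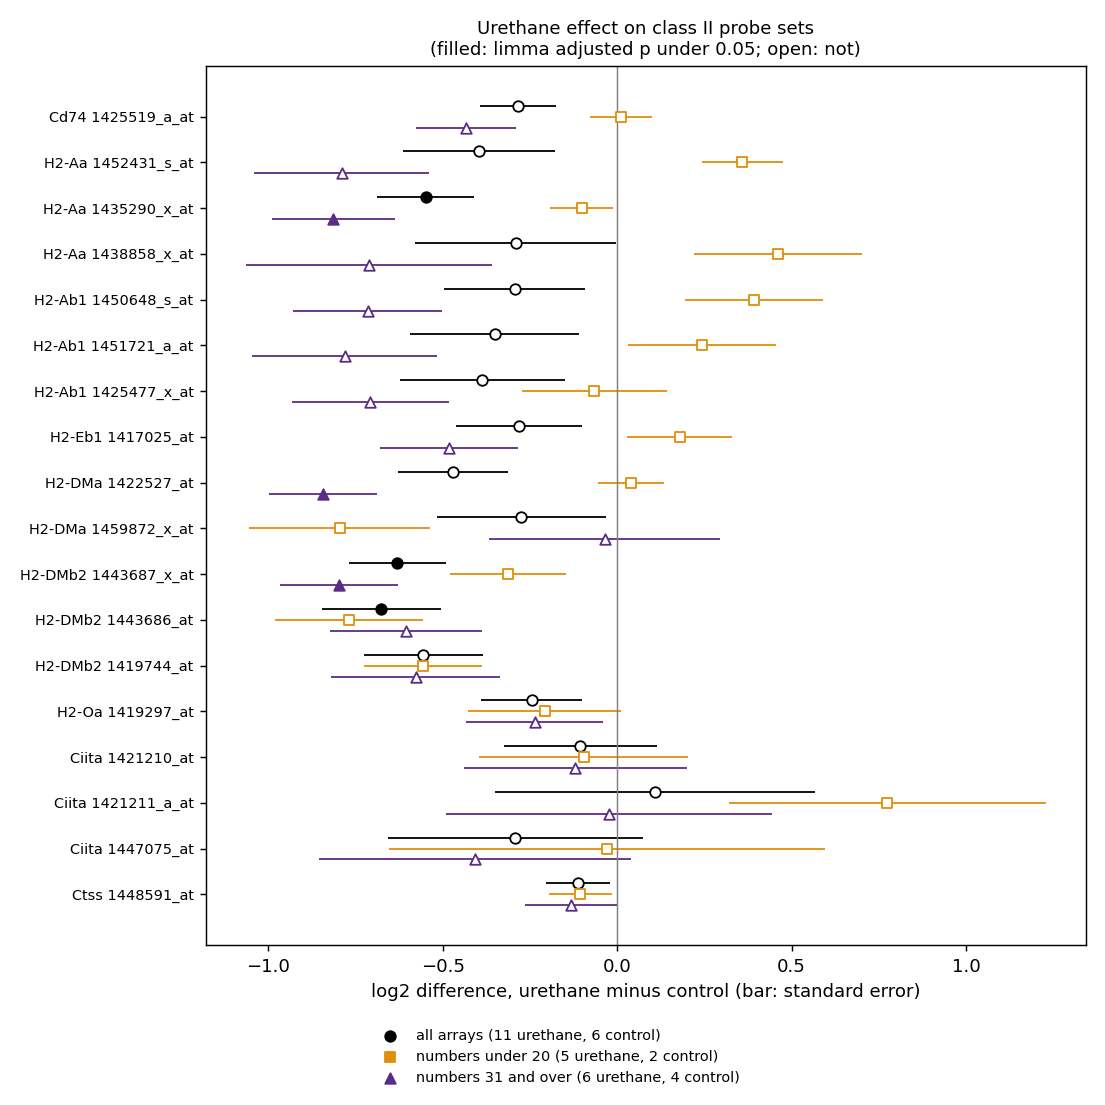
Log2 difference of urethane minus control (x axis, bars are standard errors) for the 18 member probe sets that passed the filter (rows), over all arrays (circles), numbers under 20 (squares) and numbers 31 and over (triangles). Filled symbols passed limma's adjusted p of 0.05; the chains of I-A sit to the right of 0 in the range under 20 at several probe sets and to the left of 0 in the range 31 and over, while the 3 H2-DMb2 probe sets sit to the left of 0 in both.

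Cd74, the invariant chain and chaperone of class II, had log2 signals of 14.38, 14.46, 14.52, 14.46 and 14.28 on urethane arrays 3, 5, 7, 8 and 9, and 14.37 and 14.45 on control arrays 6_13 and 14. Among arrays numbered 31 and over, urethane arrays ran from 14.11 through a median of 14.49 to 14.66, and control arrays 33, 35, 36 and 37 stood at 14.93, 14.95, 14.97 and 14.55. Controls 33, 35 and 36 were thus above every other array, and control 37 lay among the urethane arrays. The difference was 0.01 (SE 0.09, limma adjusted p = 0.948) in the range under 20 and -0.43 (SE 0.14, adjusted p = 0.132) in the range 31 and over. Over all arrays Cd74 averaged 14.42 ± 0.17 (SD, n = 11) after urethane and 14.70 ± 0.28 (SD, n = 6) in controls, and all 11 urethane arrays were below the control mean. Its difference of -0.28 (SE 0.11) did not pass in limma (adjusted p = 0.259).

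H2-Aa, the I-A alpha chain, also had its highest values on controls 33, 35 and 36 at 1452431_s_at, its brightest probe set, but unlike Cd74 its groups separated in the range under 20. The log2 signals were 13.49, 13.37, 13.57, 13.64 and 13.20 on urethane arrays 3, 5, 7, 8 and 9, against 13.001 and 13.19 on control arrays 6_13 and 14, so all 5 urethane arrays lay above both controls. Numbers 31 and over gave 12.64, 13.58 and 13.85 as the lowest, median and highest of 6 urethane arrays, against 14.31, 14.26, 14.48 and 13.52 on control arrays 33, 35, 36 and 37. All 6 urethane arrays were below that control mean, but 4 were above control 37. The differences were 0.36 (SE 0.12, limma adjusted p = 0.0810) and -0.79 (SE 0.25, adjusted p = 0.118), and the difference between them, -1.15 (SE 0.36), had an adjusted p of 0.136. No overlap in the range under 20 is common with 2 controls: 29.8% of all probe sets did not overlap there, and 11.2% had urethane higher.

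The H2-Aa probe set that passed, 1435290_x_at, had log2 signals of 13.33, 13.24, 13.44, 13.35 and 13.25 on urethane arrays under 20 and 13.36 and 13.48 on the controls. With numbers of 31 and over, its urethane arrays ran from 12.57 through a median of 13.16 to 13.52, and its controls stood at 14.05, 13.85, 14.24 and 13.51. In that range 5 of the 6 urethane arrays were below the lowest control. It fell by 0.55 over all arrays (SE 0.14, limma adjusted p = 0.0472) and by 0.81 in the range 31 and over (SE 0.18, adjusted p = 0.0193), while the difference was -0.10 in the range under 20 (SE 0.09, adjusted p = 0.488), and 0.12 there with each array centred on its median. Its adjusted p over all arrays was past the threshold in 11 of 29 alternative settings, and leaving out control 33, for example, gave -0.49 with an adjusted p of 0.154. The third H2-Aa probe set, 1438858_x_at, differed by 0.46 in the range under 20 and by -0.71 in the range 31 and over, neither past the threshold.

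H2-Ab1, the I-A beta chain, followed the alpha chain. At 1450648_s_at the log2 signals were 12.32, 12.36, 12.62, 12.84 and 11.80 on urethane arrays 3, 5, 7, 8 and 9, and 11.95 and 12.04 on control arrays 6_13 and 14. Of these urethane arrays 4 were above both controls and array 9 was below both. Urethane arrays numbered 31 and over had 11.50, 11.87 and 12.58 as lowest, median and highest, and control arrays 33, 35, 36 and 37 had 12.72, 12.58, 13.16 and 12.24. The difference was 0.39 (SE 0.20, limma adjusted p = 0.220) in the first range and -0.72 (SE 0.21, adjusted p = 0.0916) in the second, with -1.11 (SE 0.35, adjusted p = 0.136) between them. The other 2 probe sets of H2-Ab1 differed by -0.78 and -0.71 in the range 31 and over and by 0.24 and -0.07 in the range under 20.

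H2-Eb1, the I-E beta chain, had log2 signals of 12.03, 12.15, 12.50, 12.53 and 12.02 on urethane arrays under 20, and 11.94 and 12.20 on their controls. Among arrays numbered 31 and over, urethane arrays ran from 11.96 through 12.39 to 12.78, and controls 33, 35, 36 and 37 stood at 12.88, 12.75, 13.53 and 12.41. Control 36 was the highest array and 3 of 6 urethane arrays were below the lowest control. Differences of 0.18 (SE 0.15, limma adjusted p = 0.459) and -0.48 (SE 0.20, adjusted p = 0.242) did not pass. H2-Ea, which pairs with H2-Eb1 and is not itself a member, differed by -0.07 over all arrays (SE 0.23, adjusted p = 0.950).

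**Figure D2:**
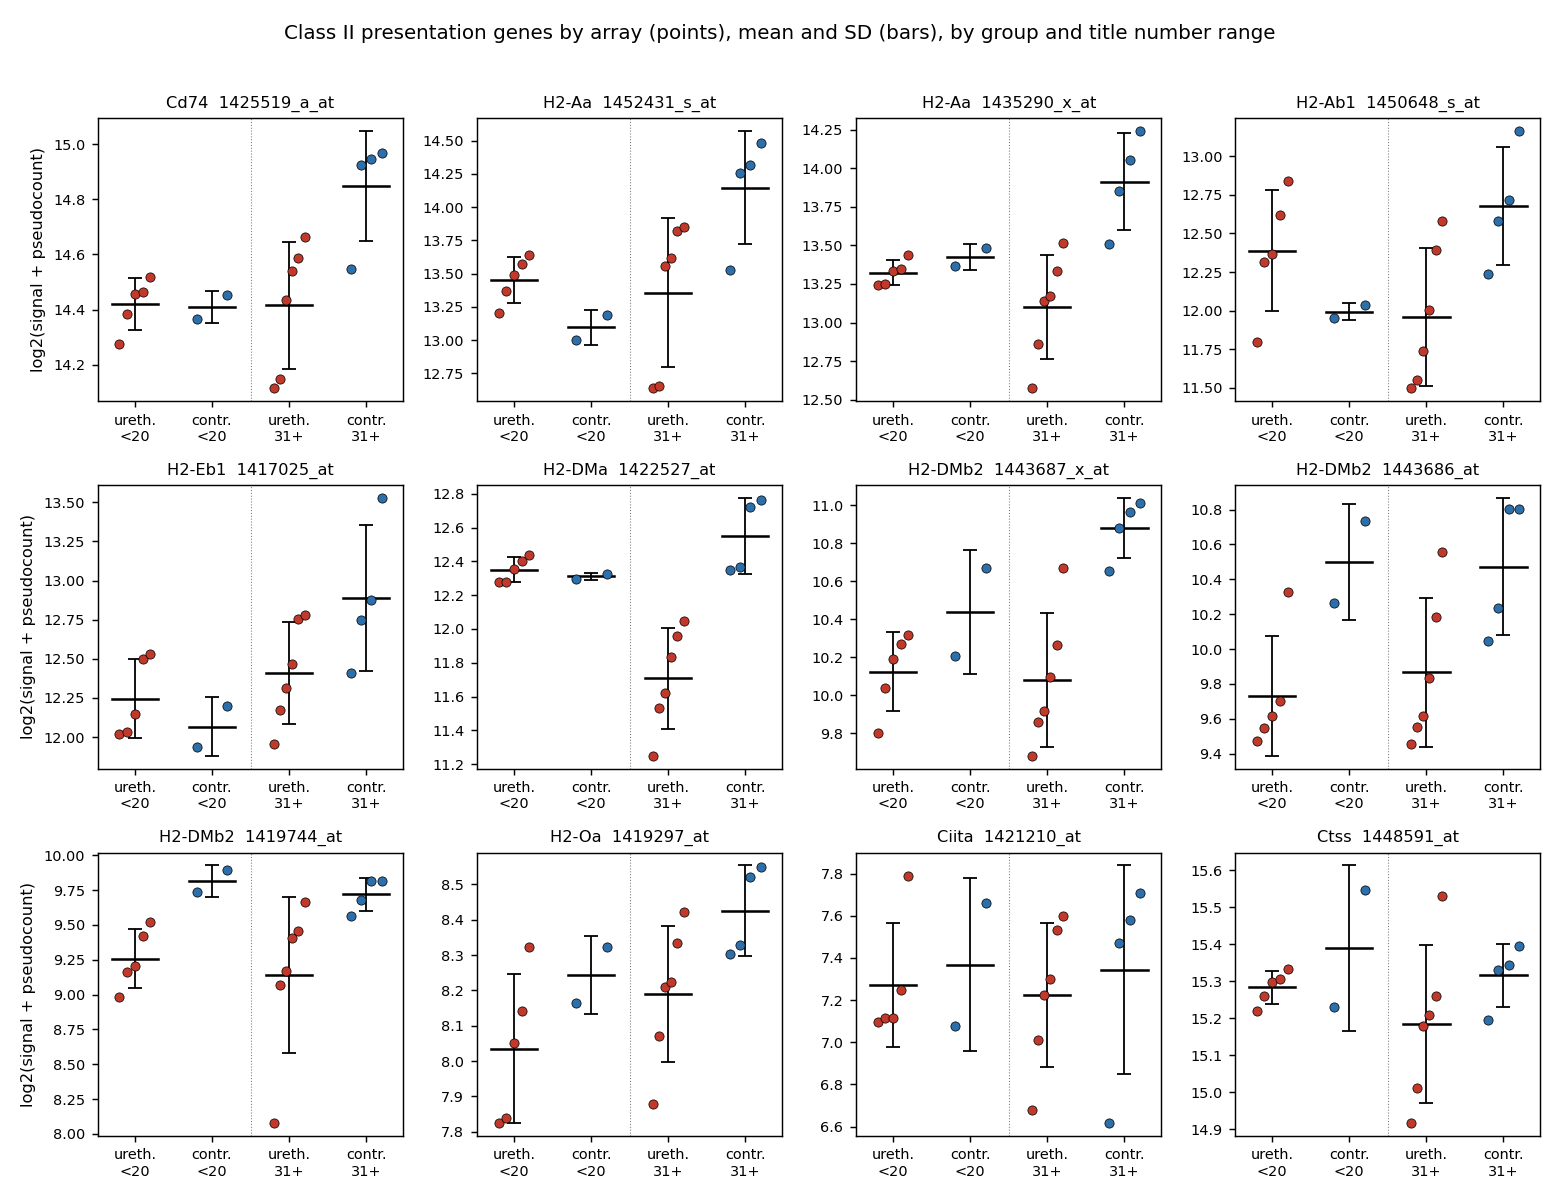
Log2(signal + pseudocount) of 12 member probe sets (y axis) on every array, urethane (red) left of control (blue) within each number range, with bars for the mean and SD (n = 5 and 2 under 20, 6 and 4 in the range 31 and over). Controls of the range 31 and over reach the highest values of Cd74, H2-Aa, H2-Ab1 and H2-Eb1, with 1 control of that range lower, and H2-DMa separates the 2 groups there.

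The H2-DM genes held the other calls. H2-DMa, the alpha chain of the peptide exchanger, had log2 signals at 1422527_at of 12.40, 12.28, 12.44, 12.28 and 12.36 on urethane arrays under 20 and 12.30 and 12.33 on their controls. With numbers of 31 and over, it had 11.25, 11.73 and 12.05 as lowest, median and highest of 6 urethane arrays, and 12.76, 12.72, 12.37 and 12.35 on controls 33, 35, 36 and 37. Here the groups did not overlap, which held for 4.57% of all probe sets, and for 2.6% with urethane lower. H2-DMa fell by 0.84 in that range (SE 0.15, limma adjusted p = 0.00702), while the difference was 0.04 in the range under 20 (SE 0.09, adjusted p = 0.814). The difference between the ranges was -0.88 (SE 0.21, adjusted p = 0.0841). Over all arrays the difference of -0.47 did not pass (adjusted p = 0.169), but with the number range as a block it fell by 0.51 (SE 0.14, adjusted p = 0.0290). Its call in the range 31 and over held in 18 of 20 alternative settings and was lost with a fit without variance trend (adjusted p = 0.0843) and without urethane arrays 33, 35 and 36, at -0.60 (adjusted p = 0.0844). The dim second probe set, 1459872_x_at, was negative in both ranges and had its larger difference in the range under 20, unlike 1422527_at. It differed by -0.80 in the range under 20 (SE 0.26, adjusted p = 0.0835) and by -0.04 in the range 31 and over. Under 20 all 5 of its urethane arrays lay below both controls, a separation with urethane lower that 18.6% of all probe sets showed.

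H2-DMb2, a beta chain of H2-DM, had negative differences in both ranges at all 3 of its probe sets, also after quantile normalization or with each array centred on its median. At 1443687_x_at the log2 signals were 10.32, 9.80, 10.27, 10.19 and 10.04 on urethane arrays 3, 5, 7, 8 and 9, and 10.67 and 10.21 on control arrays 6_13 and 14. Urethane arrays numbered 31 and over had 9.68, 10.01 and 10.67 as lowest, median and highest, and controls 33, 35, 36 and 37 had 11.01, 10.66, 10.88 and 10.96. Unlike the I-A chains, control 37 stood with the other controls of its range, and 5 of 6 urethane arrays were below all 4. The probe set fell by 0.63 over all arrays (SE 0.14, limma adjusted p = 0.0208), with differences of -0.31 in the range under 20 (SE 0.17, adjusted p = 0.246) and -0.80 in the range 31 and over (SE 0.17, adjusted p = 0.0172). Over all arrays it averaged 10.10 ± 0.28 (SD, n = 11) after urethane and 10.73 ± 0.30 (SD, n = 6) in controls, and 11 of 11 urethane arrays were below the control mean.

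At 1443686_at the urethane arrays under 20 had log2 signals of 10.33, 9.70, 9.61, 9.47 and 9.54, and controls 6_13 and 14 had 10.27 and 10.74. Among arrays numbered 31 and over, urethane arrays ran from 9.46 through 9.72 to 10.56, and the controls stood at 10.81, 10.05, 10.23 and 10.81. The groups overlapped in both ranges, through urethane array 3 in the first and arrays 32 and 34 in the second. It fell by 0.68 over all arrays (SE 0.17, limma adjusted p = 0.0455), with differences of -0.77 in the range under 20 (SE 0.21, adjusted p = 0.0518) and -0.61 in the range 31 and over (SE 0.22, adjusted p = 0.176). At 1419744_at all 5 urethane arrays under 20, between 8.99 and 9.52, were below controls at 9.74 and 9.89, a separation with urethane lower that 18.6% of all probe sets showed. That probe set differed by -0.56 in the range under 20 (SE 0.17, adjusted p = 0.0701) and by -0.58 in the range 31 and over (SE 0.24, adjusted p = 0.254), neither past the threshold. The interaction was 0.16 (SE 0.35, adjusted p = 0.819) at 1443686_at and -0.02 (SE 0.35, adjusted p = 0.980) at 1419744_at.

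The 2 probe sets annotated to both H2-DMb1 and H2-DMb2 did not follow the probe sets of H2-DMb2 alone. At 1449580_s_at the log2 signals were 12.74, 12.78, 12.54, 12.73 and 12.56 on urethane arrays under 20, all above controls at 12.38 and 12.27. Such a separation with urethane higher was shown by 11.2% of all probe sets. Urethane arrays numbered 31 and over had 11.81, 12.27 and 12.44 as lowest, median and highest, and controls 33, 35, 36 and 37 had 13.16, 12.998, 13.25 and 12.02. This layout, with control 37 low, was that of the I-A chains. The differences were 0.35 (SE 0.10, limma adjusted p = 0.0633) and -0.68 (SE 0.21, adjusted p = 0.105), with -1.02 (SE 0.30, adjusted p = 0.117) between them. The other shared probe set, 1418638_at, differed by 0.18 in the range under 20 and -0.29 in the range 31 and over. The signals do not say how much of the shared reading came from H2-DMb1.

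Without a variance trend in the fit, with each array centred on its median, or without urethane arrays 33, 35 and 36, 0 members passed over all arrays. The same held without control 33 alone or control 37 alone, where 0.782% and 1.04% of all probe sets passed. The call of H2-DMb2 at 1443687_x_at was past the threshold in 24 of 30 alternatives over all arrays and in 17 of 20 in the range 31 and over, and leaving out control 33 gave -0.57 (limma adjusted p = 0.0782) over all arrays and -0.75 (adjusted p = 0.0882) in that range. Leaving out control 37 gave -0.58 over all arrays (adjusted p = 0.0612), and 8 members in place of 3 fell in the range 31 and over. Of all probe sets 5.83% then passed in that range, in place of 2.73%. At 1443686_at the call over all arrays held in 12 of 29 alternatives.

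H2-Oa, Ciita and Ctss did not pass the test over all arrays or within either number range. H2-Oa, the alpha chain of the H2-DM inhibitor, had log2 signals at 1419297_at of 7.84, 7.83, 8.05, 8.14 and 8.32 on urethane arrays under 20 and 8.16 and 8.32 on their controls. Urethane values at 31 and over ran from 7.88 through 8.22 to 8.42, and controls 33, 35, 36 and 37 stood at 8.52, 8.55, 8.30 and 8.33. The groups overlapped, and the difference of -0.25 over all arrays (SE 0.14, limma adjusted p = 0.523) did not pass. H2-Ob, the beta chain of H2-O and not a member, differed by -0.22 (SE 0.45, adjusted p = 0.906).

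Ciita, the transactivator, had log2 signals at 1421210_at of 7.25, 7.12, 7.12, 7.79 and 7.10 on urethane arrays under 20 and 7.08 and 7.66 on their controls. With numbers of 31 and over, the lowest, median and highest urethane values were 6.68, 7.26 and 7.60, and controls 33, 35, 36 and 37 had 6.62, 7.71, 7.47 and 7.58. Control 33 was the lowest of all 17 arrays at this probe set and, with 7.05, the highest of all 17 at 1447075_at, so the Ciita probe sets do not order the arrays alike. The difference was -0.11 over all arrays (SE 0.22, limma adjusted p = 0.907), a standard error wide enough for a change in either direction. The dimmer probe sets 1421211_a_at and 1447075_at disagreed in sign over all arrays, with 0.11 (SE 0.46) and -0.29 (SE 0.36). At 1421211_a_at the difference was 0.77 (SE 0.45, limma adjusted p = 0.287) in the range under 20. It was -0.02 (SE 0.47, adjusted p = 0.989) in the range 31 and over, where urethane array 33 was highest at 8.96. At 1447075_at the differences were -0.03 and -0.41 in the 2 ranges, neither past the threshold.

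Ctss, the protease that cuts the invariant chain, had log2 signals of 15.33, 15.30, 15.22, 15.30 and 15.26 on urethane arrays under 20, and 15.23 and 15.55 on their controls. Those numbered 31 and over ran from 14.92 through 15.19 to 15.53 after urethane, and controls 33, 35, 36 and 37 stood at 15.39, 15.34, 15.33 and 15.19. The difference of -0.11 over all arrays (SE 0.09, limma adjusted p = 0.697) did not pass, and after quantile normalization it was 0.068.

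**Figure D3:**
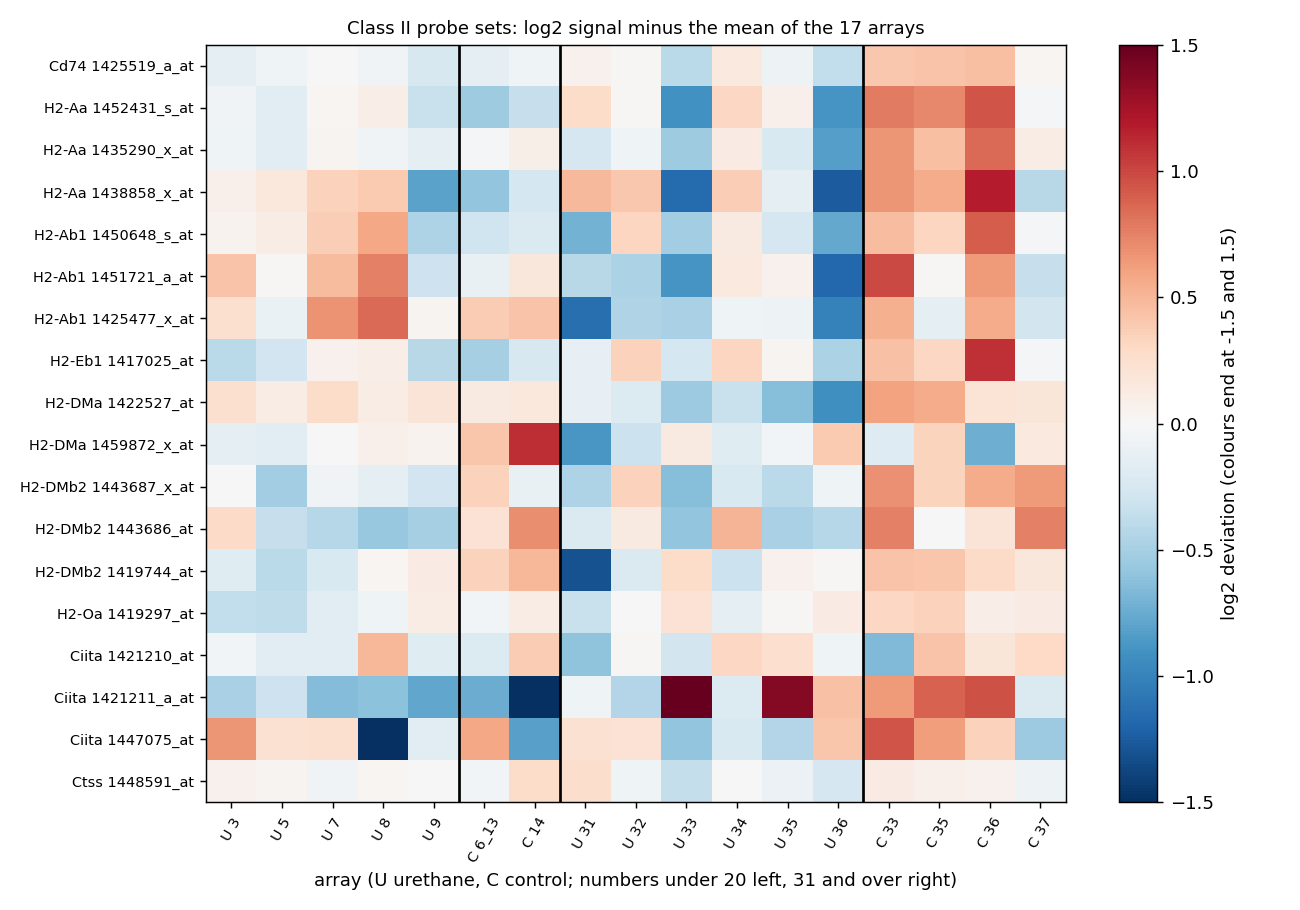
Log2 signal of each of the 18 member probe sets that passed the filter (rows) on each array (columns; U urethane, C control, numbers under 20 left and 31 and over right) minus its mean over the 17 arrays, in log2 units, with colours ending at -1.5 and 1.5. Control arrays 33, 35 and 36 are red over the rows of Cd74, H2-Aa and H2-Eb1, and urethane arrays 33 and 36 are blue there; none of the 3 Ciita rows shows both.

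Across arrays Cd74 and the brightest probe sets of the chains moved together, and the other members correlated less with them. Over the 17 arrays the Pearson correlation with the mean standardized level of the other genes among Cd74, H2-Aa, H2-Ab1 and H2-Eb1 was 0.91 for Cd74, 0.91 for H2-Aa at 1452431_s_at, 0.88 for H2-Eb1 and 0.78 for H2-Ab1 at 1450648_s_at. The other H2-Ab1 probe sets had 0.64 at 1451721_a_at and 0.33 at 1425477_x_at. With the mean of all 4 it was 0.55 for H2-DMa at 1422527_at, 0.58 for H2-DMb2 at 1443687_x_at, 0.43 for Ctss, 0.21 for Ciita at 1421210_at and 0.18 for H2-Oa. The dim H2-DMa probe set 1459872_x_at had -0.45, and the other H2-DMb2 probe sets had 0.39 at 1443686_at and 0.12 at 1419744_at. At the 3 H2-DMb2 probe sets, in the order named, it was -0.21, -0.43 and -0.50 under 20. In the range 31 and over these had 0.67, 0.62 and 0.26. For H2-DMa at 1422527_at the correlation was 0.13 over the 7 arrays under 20 and 0.80 over the 10 arrays of 31 and over. For Ctss it was -0.089 and 0.67, and for Ciita at 1447075_at -0.45 and 0.48. These correlations describe the arrays, which share group, scan day and scaling, and carry no test. The mean standardized level itself ran from -1.48 to 0.56 on urethane arrays and from -0.87 to 2.05 on control arrays, and the 3 highest values were those of controls 36, 33 and 35.

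The 8 genes outside the members whose log2 signals were most like that mean over the 17 arrays were Haus3 (Pearson r 0.89), Trappc6b (0.85), Ptpra (0.84), Clk1 (0.84), Olfm1 (0.83), Usp2 (0.82), Flii (0.81) and Crk (0.81). None of these 8 passed the comparison of urethane with control. Crk had a correlation of 0.24 within the 7 arrays under 20, whereas Clk1 had 0.88 there and 0.89 in the range 31 and over.

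Markers of other cells that carry class II were read beside the members. For monocytes and interstitial macrophages 7 of 10 listed genes passed the filter, none at 0, and their summed signal ran from 3453 to 4405 on urethane arrays under 20, against 3081 and 1380 on controls 6_13 and 14. At 31 and over it ran from 5274 to 10125 on urethane arrays, against 20042, 18331 and 15875 on controls 33, 35 and 36 and 3655 on control 37. The 3 controls with the highest class II signals were thus the 3 with the highest sum of these markers, and control 37 was below those 3 in both. The C1q genes, which encode the subunits of complement C1q and are named here after their values were seen, rose in the range under 20 (C1qa by 1.20, C1qb by 1.44 and C1qc by 1.54, limma adjusted p = 0.0327, 0.0338 and 0.0223). In the range 31 and over they differed by -0.78, -0.62 and -0.94, none past the threshold. Cx3cr1, the fractalkine receptor, fell over all arrays by 1.57 (SE 0.40, adjusted p = 0.0461), and fell by 2.39 in the range 31 and over (SE 0.46, adjusted p = 0.0104). F13a1, a coagulation factor XIII chain, rose there by 1.63 (SE 0.39, adjusted p = 0.0340), so 1 of the 7 markers rose and 1 fell in that range. Over all arrays Ccr2, F13a1 and Plac8 differed by 0.34, 0.79 and 0.83, none past the threshold. The part of these cells in the class II differences was not tested.

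**Figure D4:**
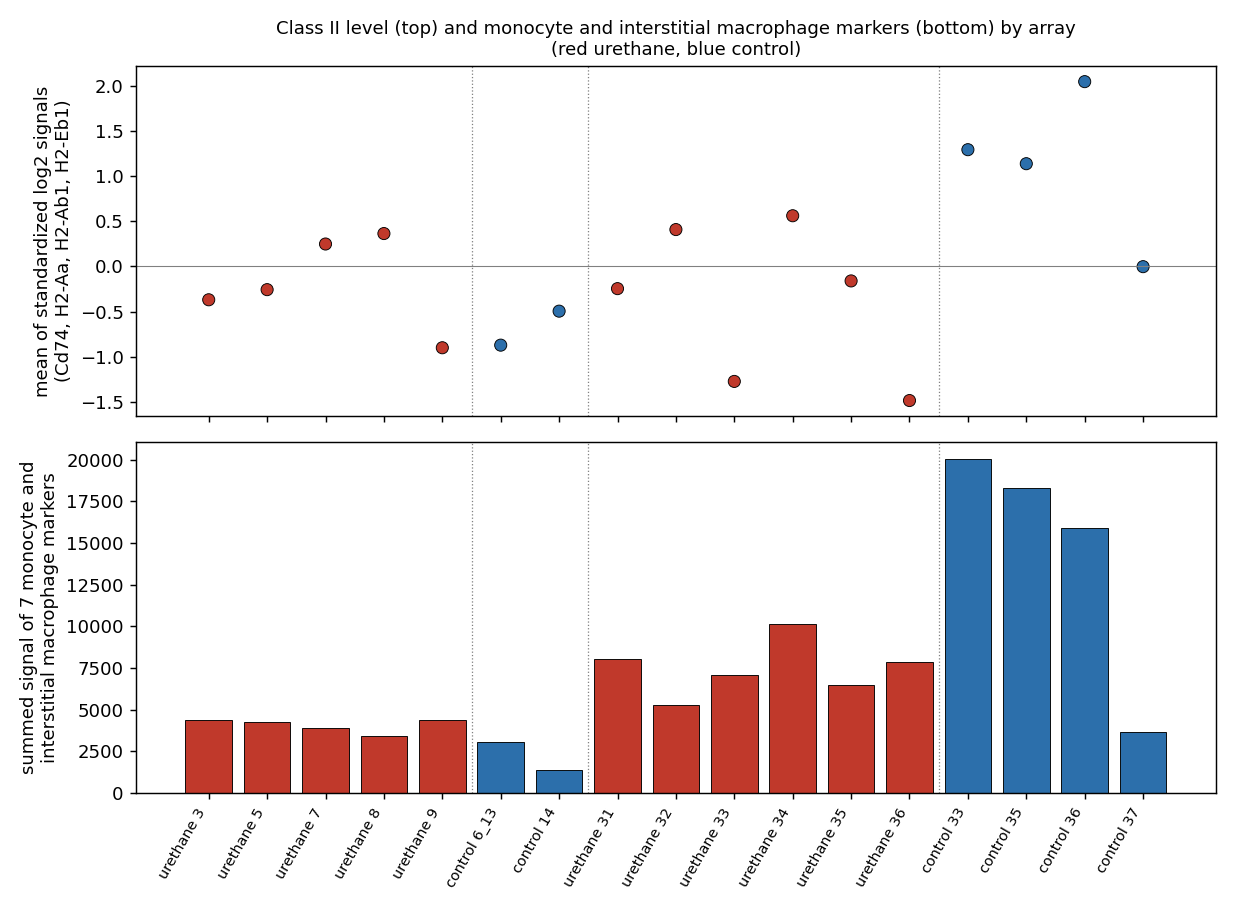
Top, mean standardized log2 signal of Cd74, H2-Aa, H2-Ab1 and H2-Eb1 on each array (points); bottom, summed signal of 7 monocyte and interstitial macrophage markers on the same arrays (bars from 0), urethane in red and control in blue, numbers under 20 left. Controls 33, 35 and 36 are highest in both panels, and the class II mean of control 37 lies among those of the urethane arrays.

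Other lists were read on the same arrays. Of dendritic cell markers 9 passed the filter, and 0 passed the test over all arrays (limma, 3 at an unadjusted p under 0.05); the sum ran from 1528 to 3902 on urethane arrays and from 881 to 4205 on control arrays, with the highest value on control 36. Of B cell markers 7 passed the filter, 0 changed over all arrays (1 at an unadjusted p under 0.05), and the sum in the range 31 and over ran from 1749 to 3113 on urethane arrays, against 867 to 1950 on control arrays. Class II was lower on the urethane arrays of that range while this sum was mostly higher. Xcr1, Cd79b and Cr2, which mark dendritic and B cells, did not pass the filter. Of 8 alveolar type 2 cell markers 1 fell over all arrays, Napsa, an aspartic protease, by 0.97 (SE 0.21, adjusted p = 0.0176), and the sum ran from 4690 to 7618 on urethane arrays and 5568 to 9946 on control arrays. Of 13 alveolar macrophage markers Fabp4 (by 1.03) and Car4 (by 0.96) rose and Cidec fell by 1.62. The T cell sum in the range 31 and over ran from 4078 to 4701 on urethane arrays, against 1188 to 3527 on control arrays, and of 8 markers Il7r rose by 1.67 over all arrays (adjusted p = 0.0269). The part of each of these cell types was not tested.

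The other genes of the pathway, 41 kept of 46 listed, were read by role at their brightest probe set. Of 8 endosomal proteases and partners 2 rose and 0 fell. Lgmn, the asparaginyl endopeptidase, averaged 13.57 ± 0.25 (SD, n = 11) on urethane arrays and 12.76 ± 0.35 (SD, n = 6) on control arrays, and rose by 0.81 (SE 0.13, limma adjusted p = 0.00217). The groups did not overlap within either number range. Of all probe sets 11.2% separated with urethane higher in the range under 20, and 1.97% in the range 31 and over. Ctsl, cathepsin L, another protease able to cut the invariant chain, averaged 14.32 ± 0.32 on urethane arrays and 13.50 ± 0.40 on control arrays, and rose by 0.82 (SE 0.16, adjusted p = 0.00789). Both also rose within each range, Lgmn by 0.97 and 0.79 and Ctsl by 0.76 and 0.94, and held in 30 of 30 alternatives over all arrays. Thus 2 proteases of the endosomal path rose on arrays where Ctss did not pass the test. Ctsb, Ctsd, Ctsh, Ctsz, Cst3 and Ifi30 did not pass.

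Of 3 genes of surface turnover 1 fell. Cd83, a surface protein that keeps class II at the surface by opposing the ubiquitin ligase March1, averaged 10.33 ± 0.22 (SD, n = 11) on urethane arrays and 11.05 ± 0.48 (SD, n = 6) on control arrays and fell by 0.73 (SE 0.15, limma adjusted p = 0.0161). In the range 31 and over the urethane arrays lay between 9.92 and 10.39, below controls at 10.83 to 11.71, and the fall was 1.09 (SE 0.16, adjusted p = 0.00180). Such a separation with urethane lower held for 2.6% of all probe sets. In the range under 20 the difference was -0.09 (SE 0.14, adjusted p = 0.698), and the interaction had an adjusted p of 0.0841. The call over all arrays held in 24 of 30 alternatives; without control 33 or 35 the adjusted p was 0.0615 or 0.0646, and with the Gapdh and Actb ratios as covariates the difference was -0.44 (adjusted p = 0.0942). The ligase genes Marchf1 (0.39, SE 0.12, adjusted p = 0.105) and Marchf8 (0.31, SE 0.16, adjusted p = 0.455) did not pass.

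Upstream genes mostly did not pass. Of 11 enhanceosome subunits and activators of Ciita 0 passed over all arrays (limma, 0 at an unadjusted p under 0.05), and the 2 of smallest p were Rfxank, an RFX subunit, at 0.36 (SE 0.18, adjusted p = 0.411) and Creb1 at -0.15 (SE 0.10, adjusted p = 0.590). Of 5 genes of interferon-gamma signalling 0 passed (0 at an unadjusted p under 0.05), with Ifngr2 at 0.31 (SE 0.16, adjusted p = 0.454) and Ifngr1 at 0.18 (SE 0.13, adjusted p = 0.651), which encode the receptor chains. In the range under 20 Ifngr2 rose by 0.68 (SE 0.13, adjusted p = 0.00997). Of 12 genes induced by interferon-gamma 1 rose and 0 fell over all arrays, Ifi47, an interferon-induced GTPase, by 0.68 (SE 0.17, adjusted p = 0.0472). That call held in 12 of 30 alternatives. In the range under 20 Ifi47, Psmb8 and Psmb9 rose, and in the range 31 and over 0 of the 12 passed (limma, 6 at an unadjusted p under 0.05). The median over the 12, each at 1 probe set, was 0.29 over all arrays, while the median over the 18 class II probe sets was -0.29. Cxcl9 and Cxcl10 were negative over all arrays, at -0.32 and -0.28, neither past the threshold, and the rest of the 12 were positive. The list and its direction were not tested against other genes.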

How the data were processed

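RNA of lavage cells was read on 17 Affymetrix Mouse430_2 arrays. The authors deposited MAS5 signals, a linear intensity for every probe set, per the submitters' processing notes (version not given). With 2% trimmed at each end the mean was 500 on every array, and that scaling was left as it was. Scan day and chip lot came from the scan files. Identical arrays were not found. The number of arrays limits the precision.

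Log2(signal + 17.1) was tested by limma 3.58.1 under R 4.3.3, with eBayes and its variance trend, two-sided, over 29550 of 45101 probe sets, with 64 control probe sets left out. By the platform annotation 34945 probe sets had 1 gene symbol, 932 several and 9160 none. The fits were 4: all arrays, each number range, and group by range. The fit was checked on simulated data. Members, gene lists, motifs and tests were chosen with earlier results of these data known. Every member probe set is described. Of the pathway lists, the genes past the threshold over all arrays are named, or else the 2 of smallest p. Some further genes of these lists, and genes of the cell type lists, are named outside that rule. Numbers 33, 35 and 36 occur in both groups, but their arrays did not deviate together (correlations -0.01, -0.14 and -0.10). Promoter sequences are RefSeq's (GRCm38.p6), those of Cd74, H2-Ab1 and Ciita not analysed here. Alignments used Biopython 1.88, and figures matplotlib 3.10.9 in Python 3.11.15.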

Additional observations from a re-analysis of the deposited data

Results flagged for a closer look

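In 4 of 72 groups of 4 to 6 arrays tested over the 18 probe sets, 1 array stood apart from the rest by Dixon's ratio, where chance flags about 1 group in 20. Cd74 had a log2 signal of 14.55 on control 37, against 14.93 on the nearest of the other 3 controls numbered 31 and over. H2-Aa at 1438858_x_at had 11.95 on urethane array 9, against 12.83 on the nearest of the other urethane arrays under 20. H2-DMb2 at 1443686_at had 10.33 on urethane array 3, with 9.70 nearest, and Ciita at 1421210_at had 7.79 on urethane array 8, with 7.25 nearest.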

How the results depend on the processing

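The fits were repeated under 30 alternatives over all arrays, 16 under 20, 20 in the range 31 and over and 27 for the interaction; leaving out urethane arrays 33, 35 and 36 together was chosen after seeing the data. Of 664 values of single probe sets over all arrays and in the range 31 and over, 570 kept their direction and side of the threshold, 76 lost a call, 13 gained one and 5 changed sign, none of the last past the threshold: Ciita in the range 31 and over with array weights (0.013) or without control 35 (0.0013, where leaving out 1 array gave -0.36 to 0.0013), and Ctss after quantile normalization (0.068 over all arrays, 0.099 in that range) or without urethane arrays 33, 35 and 36 (0.017 in that range). Under 20, quantile normalization changed the sign of 4 of 18 member differences and median centring that of 6, none past the threshold; for the interaction each changed 1. The causes were not tested.

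Members that fell over all arrays were 3, against 1 with 1 probe set per gene, 1 with RNA quality as covariates (not one of the 3), 4 with the number range as a block (H2-DMa added), 0 with median centring, no variance trend or without urethane arrays 33, 35 and 36, and 11 with the replicate block over arrays 33, 35 and 36. Of all probe sets tested, 3.14% passed with 1 per gene, 2.06% with the covariates, 4.93% with the range as a block and 20.4% with the replicate block. Leaving out 1 array gave 0 to 3 over all arrays, with 0 without control 33 or without control 37. It gave 0 to 2 that fell and 0 to 3 that rose under 20, 1 to 8 in the range 31 and over, and 0 to 4 for the interaction. The 8 and the 4 were without control 37, where 5.83% and 6.1% of all probe sets passed. The 3 that rose were without urethane array 9, where 7.87% of all probe sets passed. In the range 31 and over 5 fell with array weights, where 7.06% of all probe sets passed. In that range 0 fell with no variance trend or without urethane arrays 33, 35 and 36. With array weights 1 interaction passed, against 1.49% of all probe sets. Under 20, 1 fell with the strict filter or a pseudocount of 64, and 1 rose with median centring. Of all probe sets tested, 9.55%, 6.46% and 11.2% passed in these settings.

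Of all probe sets, 466 passed over all arrays, against 290 with median centring, 227 with no variance trend, 1456 with the number range as a block and 6023 with the replicate block, whose numbers did not pair the arrays. Under 20, 1487 passed, against 974 per gene, 356 with weights, 3299 with median centring and 50 with no variance trend. In the range 31 and over 808 passed, against 2085 with weights, 436 with median centring, 101 with no variance trend and 172 without urethane arrays 33, 35 and 36. Interactions were 5, against 11 per gene, 79 with the strict filter, 440 with weights, 22 with no filter, 18 with no variance trend, 15 with a pseudocount of 1, 3 without urethane arrays 33, 35 and 36, and 0 with median centring or quantile normalization. Leaving out 1 array gave 224 to 772 over all arrays, 145 to 2325 under 20, 256 to 1723 in the range 31 and over and 0 to 1802 for interactions. Median centring took the split of higher to lower calls to 236 and 54, against 287 and 179 over all arrays, and to 2896 and 403, against 836 and 651 under 20, where quantile normalization gave 894 and 437. It moved the median of all probe sets in the range 31 and over to -0.07, against 0.04, and that of the interaction to -0.18, against 0.15.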
